A study of Mus musculus with 8 samples.

Results

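The genes described here are 37 cytokine receptor, signal transducer and inhibitor genes, chosen by name: 26 receptor chains, the kinase Jak3, 5 STAT factors, 4 members of the SOCS family (Socs1, Socs2, Socs3 and Cish) and the adaptor Sh2b3. They are 37 of the 22050 genes with an mRNA model in the deposited count tables, and the rule itself uses no measured value, although the choice was made with earlier results of these data known. Their messenger RNA was counted in haematopoietic stem cells (HSCs), the self-renewing source of all blood lineages, which had been isolated from C57BL/6 bone marrow (C57BL/6 is an inbred mouse strain). A group of 4 libraries came from pups at postnatal day 5 (P5) and the other, also of 4 libraries, from mice at 4 weeks of age. No genetic change or treatment is named for either age. The cells had been sorted as CD150 and EPCR positive, CD48 negative and lineage negative, and the protocol gives 100 cells for each library. The series text also speaks of HSCs kept in culture, which were not analysed here. The labels do not state whether each library is a separate animal, so the spread that p-values rest on may be partly technical.

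Most cytokine receptors have no enzyme of their own. Binding of the ligand brings receptor chains together, the attached JAK kinases phosphorylate the chains and then the STAT factors, and STAT dimers move to the nucleus and start transcription. Among the genes they start are Cish and the SOCS genes, whose proteins bind back to the receptors or kinases and damp the signal. In HSCs Sh2b3 (also known as LNK) is a further brake on signals that pass through JAK2 and STAT5. Receptors of the IL-1 and TNF families work differently, through adaptor proteins and NF-kappaB.

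STAT dimers recognise the letters TTCNNNGAA, where N is any base, and these letters read the same on both strands. They were searched for in the RefSeq promoter windows of GRCm38.p6, the assembly of mm10. A window runs from 250 bases before an annotated start to 50 bases after it, and a gene can have several. Windows were found for 30 of the 37 genes, and 6 of their 39 windows (15.4%) held a match, against 8.30% of the 32851 windows of all genes. Cish and Il18r1 held 2 matches each, which 0.457% of all windows do. The stretches are shown for the 6 genes because they hold the letters of STAT dimers near a start. Each is written 5′ to 3′ on the gene's own strand with the matching letters in capitals.
Cish: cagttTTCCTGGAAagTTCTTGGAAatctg
Csf2rb2: gtgtccacaaTTCTGAGAAgcaagcaaagc
Socs3: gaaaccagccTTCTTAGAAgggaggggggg
Tnfrsf1a: gcttccTTCCGTGAAattgacaacaggctt
Tnfrsf1b: agcgcattcaTTCCCGGAAgagatgctgga
Il18r1, far: tcggggttagTTCTGGGAActgtggagctc
Il18r1, near: agtacaggtcTTCCCAGAActgaaagcttg

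The Cish stretch lies at chr9:107296654-107296683 on the plus strand and spans the annotated start, and its matches begin at bases 1 and 12 counted from that start. The Csf2rb2 stretch is at chr15:78305717-78305746 on the minus strand, with its match 15 bases before the start. Socs3 has its stretch at chr11:117969501-117969530 on the minus strand, Tnfrsf1a at chr6:125349473-125349502 on the plus strand and Tnfrsf1b at chr4:145247032-145247061 on the minus strand. The Il18r1 stretches are at chr1:40465777-40465806 and chr1:40465844-40465873 on the plus strand. For Socs3 (chr11:117966079-117970336) and Il18r1 (chr1:40465552-40500854) the start of the window lies inside the gene, so their matches lie within the gene too. In the bases before the start of a window alone, 5 genes held a match (12.8% of their windows, against 7.02% of all), Cish not among them. These are matches of letters, not binding sites, and no binding was measured.

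The libraries held 5775130 to 7470777 exon reads each, and 14356 to 14802 genes had a read. Levels are given as CPM, exon reads per 1000000 reads of a library after TMM scaling, always in the order of replicates 1 to 4. P5 replicates 1 and 3 had 2 and 0 reads of Y-linked genes, and the other 6 libraries 1532 to 2293. All 12 HSC markers were detected, with summed levels of 4939 to 5454 CPM at P5 and 4352 to 4943 CPM at 4 weeks. Of 11 tested HSC markers, 4 were called higher at P5 and 1 lower. Fgd5 had 408 to 461 CPM at P5 and 269 to 305 CPM at 4 weeks. Ly6a went the other way, at 24.1 to 33.4 and 70.7 to 112 CPM. P5 replicate 2 stood apart by monocyte and macrophage markers: all 11 had a read in some library, and their sum was 291 CPM there, 30.3 to 52.2 CPM in the other P5 libraries and 22.9 to 37.3 CPM at 4 weeks. In 4-week replicate 4 the stromal gene Cxcl12 stood at 50.4 CPM, and in 4-week replicate 3 the erythroid gene Ermap at 37.4 CPM. None of the sums of 10 marker lists differed between ages at an adjusted p under 0.05 (two-sided exact permutation test), though 5 lists had the smallest p that 70 splits allow (exact p = 0.0286, adjusted p = 0.0571). These 5 were erythroid, megakaryocyte, B cell, mast cell and endothelial markers, and their sums did not overlap between ages. With only 5 of 10 lists at this floor the adjusted p could not fall under 0.05, so it cannot decide for them. Megakaryocyte markers summed to 48.6 to 56.6 CPM at P5 and 110 to 183 CPM at 4 weeks. Their most abundant, Itgb3, had 8.59 to 17.5 CPM at P5 and 84.3 to 148 CPM at 4 weeks. Gp9 went the other way, at 21.8 to 31.5 and 6.72 to 16.5 CPM. Of 6 tested megakaryocyte markers, 1 was called higher and 1 lower. Endothelial markers summed to 803 to 852 and 557 to 666 CPM. Their most abundant, Tie1, overlapped between ages, at 300 to 343 and 322 to 413 CPM. Egfl7 had 244 to 301 and 84.6 to 95.0 CPM. Of 8 tested endothelial markers, 3 were called higher and 0 lower. B cell markers, led by Cd79b, summed to 34.1 to 51.7 and 20.9 to 26.1 CPM, and the only mast cell marker with a read, Cpa3, stood under 1.5 CPM throughout. T and NK cell markers (led by Lck) and stromal markers (led by Col1a2) overlapped between ages. In bulk libraries, fewer cells that express a gene and less RNA per cell cannot be told apart.

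The genes that differed most between ages were the STAT-induced inhibitors Cish and Socs2, both lower in the P5 stem cells. Beside them Csf3r, Il15ra, Il27ra and Stat5a were lower at P5, and Csf2rb, Il4ra and Sh2b3 were higher. These are 6 lower and 3 higher of 34 tested genes by edgeR's quasi-likelihood test at a Benjamini-Hochberg adjusted p under 0.05 over all genes. The called share was 26.5%, against 16.5% of the 12235 genes tested in all, 8.55% lower and 7.99% higher. Of the 25 not called, 6 had an unadjusted p under 0.05. Called or not, 15 of the 34 had one, against 3659 of the 12235 genes tested in all. The 34 genes had a median log2 fold change of -0.06 and a median size of change of 0.28, while all tested genes had -0.0042 and 0.20. Levels of P5 and 4-week libraries did not overlap for 12 of the 34, 5 higher and 7 lower at P5, against 21.2% of all tested genes. Without P5 replicate 4, or without 4-week replicate 1, 1 gene was called higher, Sh2b3, and 5 lower. Without P5 replicate 2, the library rich in macrophage markers, 4 were higher and 7 lower. Lifr, Osmr and Il13ra1 had too few reads to be tested.

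**Figure D1:**
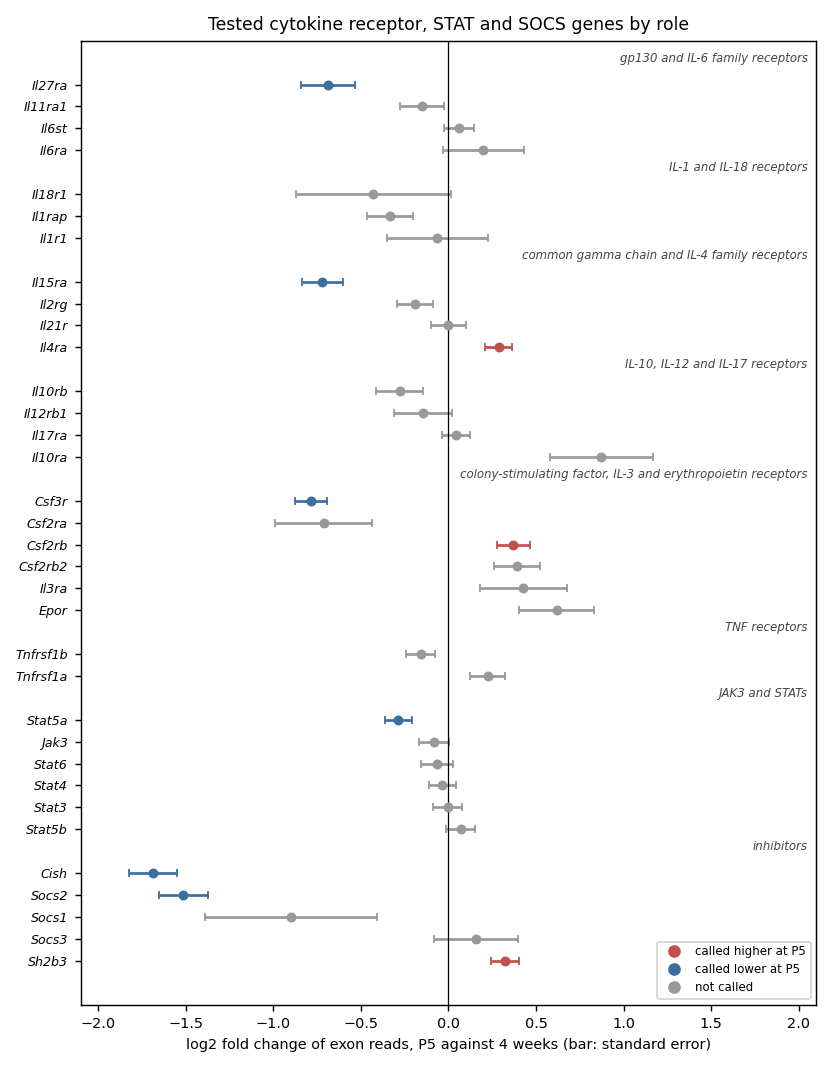
Log2 fold change of exon reads, P5 against 4 weeks, for the 34 tested genes, grouped by role. Points are edgeR estimates, bars are standard errors, and colour marks genes called lower (blue), called higher (red) or not called (grey). Cish at -1.69 and Socs2 at -1.51 lie farthest from 0.

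Cish encodes an SH2 protein that STAT5 switches on and that occupies the phosphorylated tails of cytokine receptors. It stood at 26.3, 24.7, 22.5 and 27.2 CPM in the P5 libraries and at 70.2, 73.4, 78.2 and 103 CPM at 4 weeks. The highest P5 library was far below the lowest 4-week library. The means were 25.2 ± 2.08 and 81.1 ± 14.7 CPM (SD, n = 4 each), a 3.22-fold lower level at P5 (log2 fold change -1.69 at an SE of 0.136, edgeR adjusted p = 3.14e-06). The gene lies at chr9:107296659-107302784, and its start carries the paired TTCNNNGAA letters printed above.

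Socs2, known as the brake on growth hormone signalling and also induced by STAT5, lies at chr10:95383903-95417321. Its levels were 71.2, 53.8, 72.6 and 84.2 CPM at P5 and 181, 254, 188 and 183 CPM at 4 weeks. Every 4-week library was above every P5 library, and 4-week replicate 2 stood above its own group. The P5 mean of 70.4 ± 12.5 CPM was 2.86-fold below the 4-week mean of 201 ± 35.1 CPM (SD, n = 4 each; log2 fold change -1.51 at an SE of 0.139, adjusted p = 9.16e-06). Of its reads, 79.1% mapped to a unique place. Cish and Socs2 kept their calls in all 22 alternative analyses and were the only genes of the 34 called in a test against a 1.5-fold change.

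Sh2b3, which holds back Kit and JAK2 signalling in stem cells, went the other way. It had 204, 217, 200 and 205 CPM at P5 and 173, 176, 142 and 169 CPM at 4 weeks, with no overlap (chr5:121815481-121837645). The means were 207 ± 7.64 and 165 ± 15.6 CPM (SD, n = 4 each). The log2 fold change of 0.32 had an SE of 0.0813 and an adjusted p of 0.0152. With only the 6 libraries that held Y-linked reads the adjusted p was 0.0519, in a range of 0.00209 to 1 over the alternatives. The upper end of this range, and of each range below that ends at 1, came from the stricter test against a 1.5-fold change. Socs1, which blocks JAK kinases in interferon signalling, was rare: 14, 18, 4 and 13 reads at P5 and 31, 12, 11 and 33 at 4 weeks. Its groups overlapped, at 1.80 ± 0.883 and 3.35 ± 1.61 CPM (SD, n = 4 each), and it was not called. Socs3, the inhibitor that binds gp130 and Csf3r, had 6.37 to 8.45 CPM at P5 and 5.34 to 8.22 CPM at 4 weeks, also not called.

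**Figure D2:**
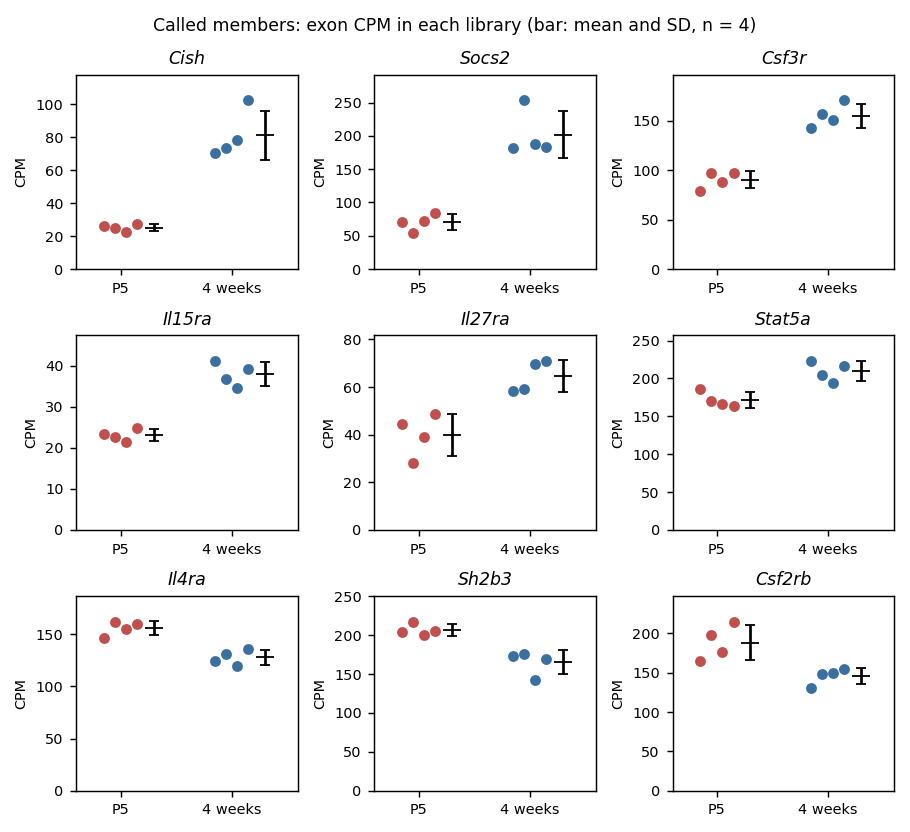
Exon CPM of the 9 called genes in each library, with points for single libraries of P5 (red) and 4 weeks (blue), and bars for the mean and SD (n = 4). All axes start at 0. The ages do not overlap in any panel, and Cish and Socs2 have the widest gap relative to their level.

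The STAT genes were abundant, and 1 of the 5 was called. Per length of exon, Stat3, the factor downstream of gp130 and Csf3r, was the highest of the 37 genes, at 65.4 ± 1.76 CPM per kb at P5 and 65.6 ± 6.58 at 4 weeks (± SD, with n = 4 each). In CPM it read 289, 293, 307 and 300 at P5 and 325, 256, 310 and 303 at 4 weeks, so the P5 values lay inside the 4-week range. Jak3, the kinase bound to the common gamma chain, had 204 to 253 CPM at P5 and 230 to 250 CPM at 4 weeks. Stat4, which serves IL-12, had 114 to 127 CPM in both groups, and Stat6, which serves IL-4, 103 to 131 CPM at P5 and 116 to 132 CPM at 4 weeks. None of these 4 was called.

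Stat5a was the exception. It had 186, 170, 167 and 164 CPM at P5 and 223, 204, 194 and 217 CPM at 4 weeks. The lowest 4-week library was above the highest P5 library, by a small margin. The means of 172 ± 10.1 and 210 ± 13.3 CPM (SD, n = 4 each) gave a log2 fold change of -0.29 (adjusted p = 0.0201, SE 0.0763). This call was lost without P5 replicate 3 (adjusted p = 0.0575) or 4 (0.0621) and without 4-week replicate 1 (0.0695) or 4 (0.0715), and the adjusted p ranged from 0.00696 to 1 over all alternatives. The upper end came from the test against a 1.5-fold change, and the next highest adjusted p was the 0.0715 without 4-week replicate 4. Its close paralog Stat5b, with largely the same targets, had 261 to 290 CPM at P5 and 238 to 298 CPM at 4 weeks and was not called. The log2 ratio of Stat5a to Stat5b was -0.67 ± 0.0933 at P5 and -0.31 ± 0.206 at 4 weeks (± SD, with n = 4 each), a difference of -0.36 (two-sided exact permutation p = 0.0571, adjusted p = 0.129 over 9 ratios). Of Stat5a reads 91.9% were unique and of Stat5b reads 87.3%. The genes are neighbours on chromosome 11, with 0.347 kb between Stat5b and Stat5a (chr11:100859351-100885169) and 1.637 kb between Stat5a and Stat3. The library kit does not mark strand, so reads from overlapping transcripts cannot be told apart.

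**Figure D3:**
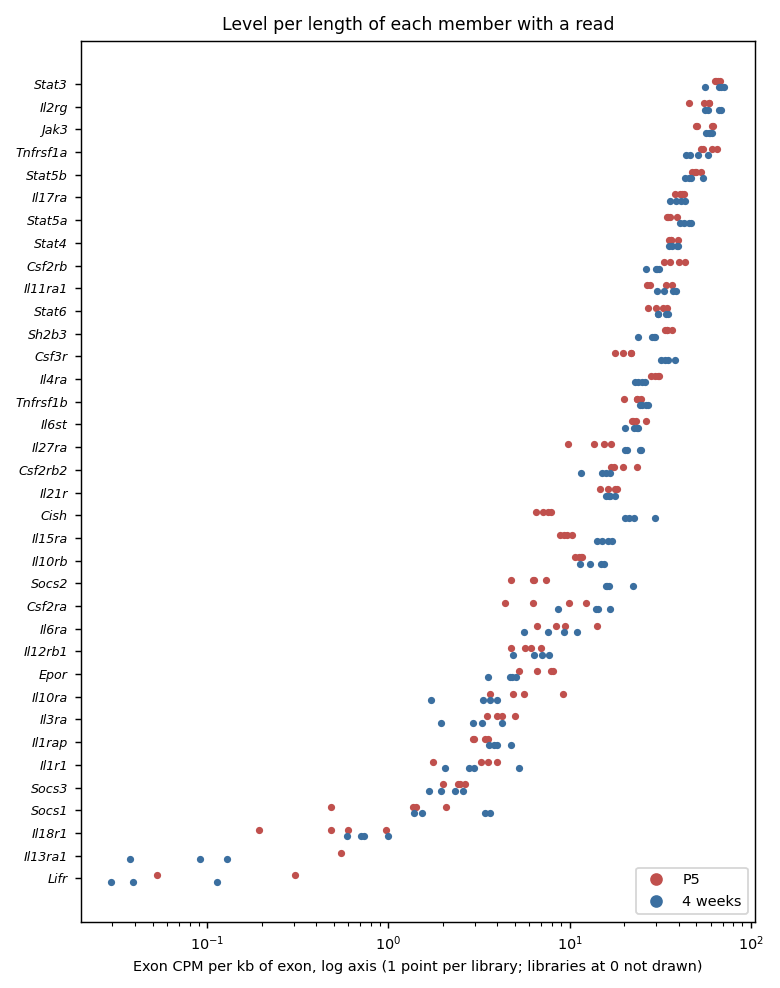
Exon CPM per kb of exon, on a log axis, for each gene with a read, 1 point per library (P5 red, 4 weeks blue, libraries at 0 not drawn). Stat3, Il2rg, Jak3 and Tnfrsf1a lead, and Lifr and Il13ra1 are lowest.

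The receptors of the colony-stimulating factors, IL-3 and erythropoietin held 2 of the called genes, in opposite directions. Csf3r, the receptor for G-CSF (chr4:126023441-126044975), had 79.2, 97.0, 87.8 and 97.0 CPM at P5 and 142, 157, 150 and 171 CPM at 4 weeks. All P5 libraries were lower than all 4-week libraries. The means of 90.2 ± 8.55 and 155 ± 12.1 CPM (SD, n = 4 each) gave a log2 fold change of -0.78 (adjusted p = 6.35e-05, SE 0.0912). Neutrophil markers, whose cells also carry this receptor, were low at both ages: 9 of 10 had a read, Mmp8 had none, and the sums were 5.66 to 12.0 CPM at P5 and 7.4 to 11.6 CPM at 4 weeks. Single markers moved both ways inside these sums. S100a8 had 0 reads in every P5 library and 13, 13, 14 and 24 at 4 weeks, and S100a9 0 reads at P5 and 12, 14, 6 and 27 at 4 weeks. Mpo had 2.59 to 8.39 CPM at P5 and 0.689 to 2.08 CPM at 4 weeks, and Ltf 2.26 to 3.95 CPM and 0 to 1.38 CPM. The part of such cells in the Csf3r value was not tested.

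Csf2rb, the beta chain that signals for GM-CSF, IL-3 and IL-5 (chr15:78325800-78351001), had 164, 197, 176 and 215 CPM at P5 and 130, 149, 150 and 154 CPM at 4 weeks. The groups did not overlap, and the means were 188 ± 22.4 and 146 ± 10.7 CPM (SD, n = 4 each). The log2 fold change was 0.37 (adjusted p = 0.0162, SE 0.0942). Without P5 replicate 4 the adjusted p was 0.0557 and without 4-week replicate 1 it was 0.0605, in a range of 0.00318 to 1 over the alternatives. Csf2rb2, the beta chain that mice keep for IL-3 alone, lies 20.079 kb away. It had 83.2, 111, 80.8 and 93.3 CPM at P5 and 54.8, 79.6, 75.4 and 71.8 CPM at 4 weeks, also without overlap, but missed the threshold (log2 fold change 0.39 at an SE of 0.131, adjusted p = 0.0594). Without 4-week replicate 2 its adjusted p was 0.0357, and over the alternatives it ran from 0.0301 to 1. About as many reads were unique in the one (86.0%) as in the other (86.5%), and with unique reads alone the same number of genes was called, 3 higher and 6 lower.

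The alpha chains gave less certain values. Csf2ra, which binds GM-CSF, had 9.95, 27.7, 14.2 and 22.4 CPM at P5 and 31.8, 19.5, 37.7 and 32.4 CPM at 4 weeks, and the groups overlapped (log2 fold change -0.71 at an SE of 0.277, adjusted p = 0.101). Without P5 replicate 2 the log2 fold change was -0.97 (adjusted p = 0.0233), and without 4-week replicate 2 it was -0.86 (0.0430), in a range of adjusted p from 0.0233 to 1. Only 28.2% of its reads were unique, so its level is uncertain. Il3ra, the IL-3 binding chain, had 8.89 to 12.7 CPM at P5 and 5.0 to 10.8 CPM at 4 weeks and was not called. The log2 ratio of Csf2ra to Csf2rb was -3.40 ± 0.498 at P5 and -2.28 ± 0.428 at 4 weeks (± SD, with n = 4 each), a difference of -1.12 (exact permutation p = 0.0571, adjusted p = 0.129).

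Epor, the erythropoietin receptor, had 14.9, 9.64, 14.4 and 12.1 CPM at P5 and 6.48, 9.31, 8.58 and 8.87 CPM at 4 weeks. The lowest P5 library was just above the highest 4-week library, and the gene was not called (log2 fold change 0.62 at an SE of 0.214, adjusted p = 0.066). Without P5 replicate 2 the adjusted p was 0.0366, in a range of 0.0366 to 1. Erythroid markers summed to 594 to 918 CPM at P5 and 90.5 to 158 CPM at 4 weeks. Most of this was the globin Hbb-bt, at 571 to 901 CPM and 83.1 to 128 CPM, while 9 of the 10 markers had a read and Alas2 had none. Their part in the Epor value was not tested.

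Of the gp130 and IL-6 family, Il27ra was called. It encodes the chain that pairs with gp130 to bind IL-27 (chr8:84030286-84042600). Its levels were 44.6, 28.1, 38.9 and 48.5 CPM at P5 and 58.3, 59.3, 69.8 and 71.1 CPM at 4 weeks. P5 replicate 2 was lowest, and the groups did not overlap. The means were 40.0 ± 8.85 and 64.6 ± 6.76 CPM (SD, n = 4 each; log2 fold change -0.69 at an SE of 0.153, adjusted p = 0.00716), and without P5 replicate 2 the log2 fold change was -0.55 (adjusted p = 0.00848). Il6st, which encodes gp130 itself, had 120 to 144 CPM at P5 and 110 to 130 CPM at 4 weeks. Il11ra1, the IL-11 binding chain and the most abundant of this family per length, had 71.7, 54.7, 52.2 and 67.1 CPM at P5 and 59.4, 65.1, 76.2 and 72.6 CPM at 4 weeks. Neither was called, and 51.1% of Il11ra1 reads were unique.

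Il6ra, the IL-6 binding chain, had 27.4, 58.8, 39.4 and 35.3 CPM at P5 and 39.0, 23.4, 45.8 and 31.6 CPM at 4 weeks. P5 replicate 2 was the highest of the 8, and the gene was not called. Lifr, the receptor for leukaemia inhibitory factor, had 0, 21, 0 and 4 exon reads at P5 and 2, 7, 0 and 3 at 4 weeks. Osmr, the oncostatin M chain, had 0 exon reads in every library, which allows up to 0.409 to 0.517 CPM by library (3 counts, counting error only), and 0 to 5 intron reads.

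The common gamma chain and IL-4 family held a lower and a higher gene. Il15ra, which presents IL-15 to neighbouring cells (chr2:11705172-11733985), had 23.4, 22.5, 21.3 and 24.8 CPM at P5 and 41.2, 36.7, 34.5 and 39.3 CPM at 4 weeks. The groups were tight and far apart. The means of 23.0 ± 1.47 and 37.9 ± 2.96 CPM (SD, n = 4 each) gave a log2 fold change of -0.72 (adjusted p = 0.00106, SE 0.119). Il2rb, the chain that passes on the IL-15 signal, had 0 exon reads in all 8 libraries with 35 intron reads at P5 and 42 at 4 weeks. Its ligand gene Il15 had 46.8, 49.6, 33.3 and 40.7 CPM at P5 and 59.7, 49.5, 56.4 and 66.1 CPM at 4 weeks. It was called lower (log2 fold change -0.44 at an SE of 0.138, adjusted p = 0.0427), though its groups overlapped by 4-week replicate 2. The Il15 call was lost without P5 replicate 3 (adjusted p = 0.106) or 4 (0.0978) and without 4-week replicate 1 (0.0989), 3 (0.0728) or 4 (0.133).

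Il4ra, the chain that binds IL-4 (chr7:125552271-125579474), had 146, 162, 155 and 159 CPM at P5 and 124, 131, 120 and 136 CPM at 4 weeks. The difference was small against its level, but the groups did not overlap. The means were 156 ± 6.84 and 128 ± 7.32 CPM (SD, n = 4 each; log2 fold change 0.29 at an SE of 0.0750, adjusted p = 0.0186). The call was lost without P5 replicate 4 (adjusted p = 0.0516), 4-week replicate 1 (0.0609) or 4-week replicate 3 (0.0601), in a range of 0.00447 to 1. Its partner in the receptor found on most non-blood cells, Il13ra1, had 13 reads at P5, all in replicate 2, and 6 at 4 weeks. Its other partner Il2rg, the common gamma chain, was the most abundant of the family per length. Il2rg had 89.0, 74.0, 95.3 and 94.3 CPM at P5 and 111, 108, 89.9 and 94.2 CPM at 4 weeks, with overlap, and was not called. Il21r, the IL-21 chain next to Il4ra on chromosome 7 (23.778 kb away), had 54.1 to 66.9 CPM at P5 and 58.8 to 66.0 CPM at 4 weeks, not called.

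No gene of the IL-10, IL-12 and IL-17 receptors was called by edgeR. Of the 4, 1 had an unadjusted p under 0.05, as did 3659 of all 12235 tested genes. Il10ra, the IL-10 binding chain, came closest, at 17.6, 33.1, 13.1 and 20.3 CPM at P5 and 14.4, 6.20, 13.1 and 12.1 CPM at 4 weeks (log2 fold change 0.87 at an SE of 0.292, adjusted p = 0.0582). P5 replicate 2 was the highest. Without it the log2 fold change was 0.57 (adjusted p = 0.165), and without P5 replicate 3 it was 1.04 (0.0323), in a range of 0.0206 to 0.738. DESeq2 called it, at an adjusted p of 0.0247. Il10rb, the second chain of the receptor, had 22.4 to 24.4 CPM at P5 and 23.8 to 32.5 CPM at 4 weeks. The log2 ratio of Il10ra to Il10rb was -0.41, 0.45, -0.87 and -0.14 at P5 and -1.15, -2.05, -1.22 and -0.95 at 4 weeks. These did not overlap, and the difference was 1.10, at an exact permutation p of 0.0286 and an adjusted p of 0.129. That exact p is the smallest that 70 splits allow. After adjustment over 9 ratios, a single ratio at this floor could not fall under 0.05, so the adjusted p cannot decide here. Without P5 replicate 2 the difference was 0.87.

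Il12rb1, shared by IL-12 and IL-23, had 19.3 to 28.5 CPM at P5 and 19.9 to 31.3 CPM at 4 weeks. Il17ra, the common IL-17 chain, was the most abundant of this group per length and read 153, 163, 167 and 170 CPM at P5 and 173, 154, 143 and 165 CPM at 4 weeks. The files list it on 2 contigs, only 0.0947% of its reads were unique, and the copies were summed here. The copies held 557 and 565 reads in P5 replicate 1 but 971 and 122 in 4-week replicate 1, so the sum can be read and the split cannot.

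**Figure D4:**
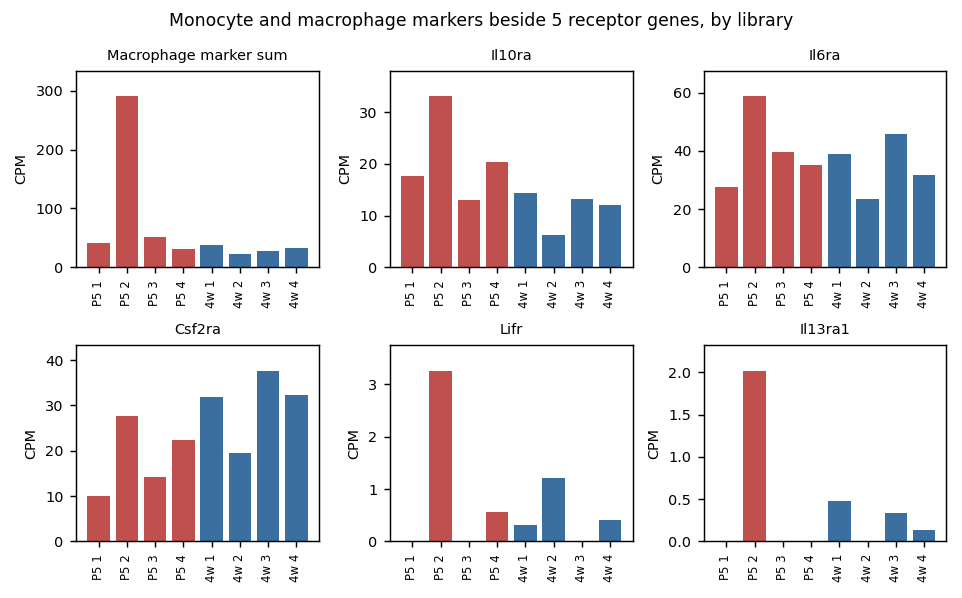
Summed CPM of the 11 monocyte and macrophage markers and CPM of 5 receptor genes in each library (P5 red, 4 weeks blue, axes from 0). P5 replicate 2 is highest in the marker sum (291 CPM) and in Il10ra, Il6ra, Lifr and Il13ra1, but not in Csf2ra.

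The high values of P5 replicate 2 in Il10ra, Il6ra, Lifr and Il13ra1 came with its macrophage markers. Csf1r, the macrophage growth factor receptor, had 158 CPM there and 3.45 to 7.92 CPM in the other 7 libraries. The part of such cells in these receptor values was not tested. The values without this library are 0.57 for Il10ra and -0.97 for Csf2ra on the log2 scale, and Lifr and Il13ra1 then had 4 and 0 reads at P5.

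The IL-1 and IL-18 receptors and the TNF receptors gave no call from exon reads by edgeR or DESeq2. An unadjusted edgeR p under 0.05 was reached by 1 gene of each family, Il1rap and Tnfrsf1a, and by 3659 of all 12235 tested genes. Il1rap, the accessory chain that IL-1 and IL-33 receptors share, had 24.9, 28.9, 30.1 and 25.2 CPM at P5 and 34.0, 30.3, 32.6 and 40.2 CPM at 4 weeks. These groups did not overlap, by a margin of under 1 CPM, and the test missed the threshold (log2 fold change -0.33 at an SE of 0.131, adjusted p = 0.105). With exon plus intron reads Il1rap was called lower (-0.36, adjusted p = 0.0318), in a range of 0.0318 to 1 over the alternatives. Il1r1, the signalling IL-1 receptor, had 10.6 to 24.1 CPM at P5 and 12.5 to 31.8 CPM at 4 weeks. Il18r1 was rare, at 0.987 to 4.97 CPM and 3.00 to 5.05 CPM. Tnfrsf1a, the TNF receptor with a death domain, was the more abundant TNF receptor per length. It had 131, 140, 117 and 115 CPM at P5 and 111, 94.4, 100 and 125 CPM at 4 weeks, with overlap (log2 fold change 0.22 at an SE of 0.102, adjusted p = 0.16). Tnfrsf1b, the TNF receptor without a death domain, had 98.7 to 122 CPM at P5 and 121 to 132 CPM at 4 weeks. The log2 ratio of Tnfrsf1a to Tnfrsf1b was 0.15 ± 0.111 at P5 and -0.24 ± 0.190 at 4 weeks (± SD, with n = 4 each), a difference of 0.39 (exact permutation p = 0.0571, adjusted p = 0.129).

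The other 5 of the 9 ratios between chains or paralogs had adjusted p-values of 0.771 to 0.857. Their differences were 0.13 for Il6ra to Il6st, 0.10 for Lifr to Il6st, 0.28 for Il1r1 to Il1rap, 0.22 for Il4ra to Il13ra1 and 0.14 for Socs2 to Cish. Leaving out 1 library moved them widely: Il6ra to Il6st ran from -0.014 (without P5 replicate 2) to 0.26 (without P5 replicate 1), Lifr to Il6st from -0.48 (without P5 replicate 2) to 0.47 (without 4-week replicate 2). Il1r1 to Il1rap ran from 0.015 (without 4-week replicate 4) to 0.55 (without 4-week replicate 3), and Il4ra to Il13ra1 from 0.011 (without P5 replicate 4) to 0.78 (without P5 replicate 2). Socs2 to Cish ran from -0.017 (without 4-week replicate 4) to 0.30 (without 4-week replicate 2), so no direction can be read from these 5. Socs2 to Cish stood at 1.45 ± 0.254 at P5 and 1.31 ± 0.392 at 4 weeks (± SD, with n = 4 each) in log2 CPM. The difference lay inside the spread of the ratio at either age.

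Intron reads of the same genes are another count from the same libraries. Of the 32 genes that could be tested by introns, 5 were called, all lower at P5: Cish (-1.22, adjusted p = 0.00642), Socs2 (-1.78, 0.0013), Csf3r (-0.96, 0.00398), Il15ra (-0.70, 0.00212) and Stat5a (-0.53, 0.0256). Over all genes, 17.9% of 13180 were called by introns, 8.86% lower and 9.01% higher. Each of these 5 was also called by exons. Il27ra pointed the same way without a call (-0.48, adjusted p = 0.0919). The highest intron change was 0.90, in Il1r1 (adjusted p = 0.0619). The 3 genes that were higher by exons were not called by introns: Csf2rb had 0.23 (adjusted p = 0.216), Il4ra -0.03 (0.904) and Sh2b3 -0.02 (0.939). Exon and intron changes had the same sign in 20 of the 32 genes. P5 replicate 1 had a lower share of intron reads, 60.1%, than the other libraries, at 66.8% to 68.7%, and the part of this in the intron values was not tested.

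**Figure D5:**
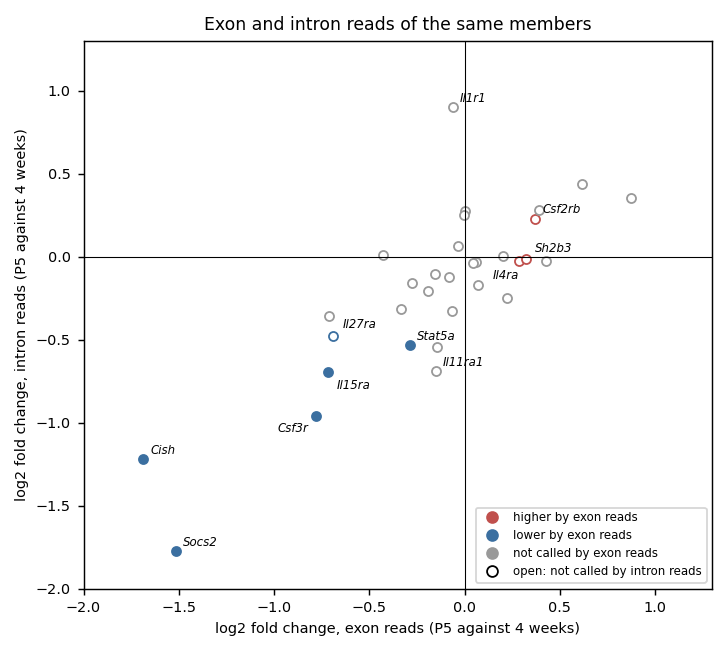
Log2 fold change, P5 against 4 weeks, by exon reads (x) and intron reads (y) for the 32 genes tested by both. Colour marks the call by exons and filled points are called by introns too. The 5 filled points lie in the lower left. Il4ra and Sh2b3 lie near 0 by introns, and Csf2rb lies at 0.23.

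The authors' deposited table, which holds their own test of the ages, lists 38 rows for the 37 genes. It gives 5 of them a corrected p under 0.05: Cish, Socs2, Csf3r, Il15ra and Il27ra. All 5 are among the 9 called here. The other genes called here have a corrected p above 0.05 in the authors' deposited table: Csf2rb 0.0653, Sh2b3 0.0908, Il4ra 0.150 and Stat5a 0.153.

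Around these genes, 109 others of the same pathways were listed, of which 80 could be tested: 11 were higher and 9 lower at P5, a called share of 25.0%, against 16.5% of all tested genes (7.99% higher and 8.55% lower). Their median log2 fold change was -0.05. Without P5 replicate 2 there were 8 higher and 9 lower, and without 4-week replicate 1 there were 10 and 5. Among other receptors, 6 of 15 tested were higher and 1 lower. The 6 include Csf1r, whose reads came mostly from the macrophage-rich P5 replicate 2, and the progenitor receptor Flt3, both named after their values were known. Without that library the log2 fold changes were 0.59 for Csf1r (adjusted p = 0.314) and 0.48 for Flt3 (0.0956), and neither was called. The Csf1r call was also lost without any of the 4-week libraries (adjusted p 0.0688 to 0.0885), and the Flt3 call without P5 replicate 1 (0.0847) or 4 (0.0774) or 4-week replicate 2 (0.0745), 3 (0.0944) or 4 (0.0536). Il9r, the IL-9 chain, had 55.1, 81.4, 64.5 and 67.3 CPM at P5 and 6.32, 8.27, 15.3 and 8.59 CPM at 4 weeks. This was 6.98-fold higher at P5 (log2 fold change 2.80 at an SE of 0.223, adjusted p = 2.87e-06), more than any of the 37 genes changed. Il17re, an IL-17 family chain, was lower (log2 fold change -0.77 at an SE of 0.228, adjusted p = 0.0336). That call was lost without P5 replicate 3 (adjusted p = 0.0938) or 4 (0.0904) and without 4-week replicate 1 (0.0743), 3 (0.0501) or 4 (0.104).

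Il18rap, the second chain of the IL-18 receptor, had 98.2, 101, 101 and 89.1 CPM at P5 and 31.8, 40.3, 41.2 and 41.1 CPM at 4 weeks. It was higher at P5 (log2 fold change 1.33 at an SE of 0.107, adjusted p = 3.07e-06), while Il18r1, 14.508 kb away, was not called. Both belong to a row of IL-1 family receptor genes on chromosome 1, whose other genes are named here because of their values. Il1r2, the decoy receptor at the far end, was higher (1.44, SE 0.242, adjusted p = 0.0012), as was Il1rl2, an IL-36 receptor chain (0.70, SE 0.186, adjusted p = 0.02). Il1r1 lies between these 2 and was not called. The Il1rl2 call was lost without P5 replicate 2 (adjusted p = 0.0513) or 4 (0.0522). Il1rl1, the IL-33 receptor next to Il18r1, had 6 reads, all in P5 replicate 2, and 55 reads, all in 4-week replicate 3, and was not tested.

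Of the other kinases and STATs, Stat2, which serves interferon signalling, was lower at P5 (log2 fold change -0.64 at an SE of 0.135, adjusted p = 0.00533). Jak1, the most abundant of this list per length, was not called (-0.16, adjusted p = 0.203).

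Among 17 other negative regulators, 2 were higher and 1 lower, a called share of 17.6%, near the 16.5% of all tested genes. The ubiquitin ligases Cbl (0.56, SE 0.0794, adjusted p = 0.000352) and Cblb (0.45, SE 0.0866, adjusted p = 0.00322) were higher at P5, as Sh2b3 was, and Cish and Socs2 were not. The phosphatase Ptpn11 was lower (-0.25, SE 0.0696, adjusted p = 0.0272). Its call was lost without P5 replicate 3 (adjusted p = 0.0755) or 4 (0.0514) and without 4-week replicate 1 (0.0663), 2 (0.0669) or 4 (0.0635). Ptpn6, the most abundant of the list per length, was not called (0.15, adjusted p = 0.194). By intron reads Ptpn6 was called lower (-0.42, edgeR adjusted p = 0.0191). Of 22 tested IL-1 and TNF adaptors, 1 was higher and 1 lower, a called share of 9.09%, below that of all tested genes. Tab2, an adaptor of the kinase TAK1, had 442 to 488 CPM at P5 and 250 to 280 CPM at 4 weeks (0.82, SE 0.0700, adjusted p = 5.2e-06). The deubiquitinase Cyld was lower (-0.36, SE 0.107, adjusted p = 0.0334). That call was lost without P5 replicate 1 (0.0773) or 2 (0.0675) and without any of the 4-week libraries (0.0523 to 0.0955).

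Of 8 STAT-responsive genes other than the inhibitors, 2 were lower at P5 and 0 higher. The called share was 25.0%, against 16.5% of all tested genes (8.55% lower). By sign, 3 of the 8 were higher and 5 lower, at a median log2 fold change of -0.055. The survival kinase Pim2, a STAT5 target, had 16.5, 18.7, 17.1 and 18.9 CPM at P5 and 34.4, 46.5, 49.5 and 39.9 CPM at 4 weeks (log2 fold change -1.26 at an SE of 0.141, adjusted p = 4.51e-05). Its groups did not overlap, like those of Cish and Socs2 and of 21.2% of all tested genes. The repressor Bcl6 had few reads, 11, 1, 3 and 1 at P5 and 23, 33, 35 and 14 at 4 weeks (-2.83, SE 0.641, adjusted p = 0.00805). Mcl1, the most abundant of the list per length, had 459 to 633 CPM at P5 and 424 to 480 CPM at 4 weeks and was not called (0.26, adjusted p = 0.0774). Without P5 replicate 1 the Mcl1 adjusted p was 0.0127.

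Of 13 tested cytokine ligands, 2 were higher and 2 lower, a called share of 30.8%, against 16.5% of all tested genes. Ebi3, the partner of the IL-27 subunit, had 134, 133, 94.4 and 117 CPM at P5 and 58.6, 51.5, 61.4 and 65.9 CPM at 4 weeks (1.01, SE 0.120, adjusted p = 7.74e-05). It was higher at P5 where Il27ra was lower, but only 16.6% of its reads were unique. Tnf had 4.53 to 8.18 CPM at P5 and 0.158 to 2.49 CPM at 4 weeks (2.72, SE 0.591, adjusted p = 0.00632), with none of its reads unique. Il7 had 7, 5, 8 and 8 reads at P5 and 34, 27, 23 and 20 at 4 weeks (-1.98, SE 0.405, adjusted p = 0.00437). Il15, given above beside its receptor, was the other lower ligand.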

How the data were processed

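The authors deposited, per the file headers, counts of unique and total reads over the exons and introns of 48835 gene rows, and RPKM values, which were not used. Per the submitters' processing notes reads were placed on mm10. A named aligner, counter or annotation is not given in the sources used here. Those tables also hold a test of age with a p-value and a corrected p-value per gene, deposited by the authors. The Nextera XT libraries, named in the labels' protocols, carry no strand information.

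Total exon read counts of the 23457 rows with an mRNA model were used as deposited, except that 969 genes listed on several contigs were summed, leaving 22050 genes. In the table of P5 replicate 4, 24 names that had been turned into dates were restored. The test was that of edgeR 4.0.16 under R 4.3.3 (TMM, filterByExpr, quasi-likelihood, age alone, 8 libraries). It kept 12235 genes, which held 99.8% of exon reads, with a common biological coefficient of variation of 0.152. P-values were adjusted over all of these (Benjamini-Hochberg, threshold 0.05), and the standard errors are approximate, derived from the F statistic. On data simulated with known changes, the same step was tested and recovered them with the right sign. Those changes were larger than the changes of most called genes described here, and recovery of smaller ones was not tested. Ratios used log2(CPM + 0.5), and ratios and marker sums two-sided exact permutation tests over 70 splits (scipy 1.17.1, numpy 2.4.6 and pandas 2.3.3 in Python 3.11.15, matplotlib 3.10.9 for figures). Intervals and limits cover counting error only, since reads carry no molecular identifiers.

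The genes and lists were chosen with earlier results of these data known. Called genes are given in every library. Genes not called are given by range, with full values for the most abundant per length of each role and for those near the threshold, the latter chosen after their values were seen. Of each other pathway list the 2 called genes with the smallest p in each direction and the most abundant per length are named. Some genes that this rule names are not reported here. Positions and promoters are RefSeq's, on GRCm38.p6. The search of promoter bases after the start was added after seeing the data. Promoters of Csf2rb, Il10ra, Il10rb, Il12rb1, Il17ra, Il27ra and Socs2, and proteins, were not analysed here. Alternatives were DESeq2 1.42.0, limma-voom (limma 3.58.1), size factors of DESeq2 in edgeR, scaling that leaves out globins, a block for replicate number, omission of each library, no filter or at least 5 CPM in 4 libraries, a test against a 1.5-fold change, unique, intron or exon plus intron reads, copies not summed, Y-linked reads as a covariate, and only libraries with such reads.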

Additional observations from a re-analysis of the deposited data

Results flagged for a closer look

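Of 74 groups of 4 libraries checked (37 genes at 2 ages), 2 held a library far from the other 3, and chance alone flags about 1 in 20 such groups. Il13ra1 stood at 2.02 CPM (13 reads) in P5 replicate 2 and at 0 in the other P5 libraries. Macrophage markers summed to 291 CPM in this library and to at most 52.2 CPM in any other, and their part in the Il13ra1 value was not tested. Socs2 stood at 254 CPM in 4-week replicate 2, against 181 to 188 CPM in the other 4-week libraries, and all 4 lay above the P5 range of 53.8 to 84.2 CPM.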

How the results depend on the processing

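Of the 37 genes, 3 were higher and 6 lower at P5. The higher count was 5 with no filter, by DESeq2 and with Y-linked reads as a covariate, 0 by intron reads and 0 against a 1.5-fold change, where the lower count was 2. Leaving out 1 library gave 1 to 4 higher and 5 to 7 lower. Of the other pathway genes, 11 were higher and 9 lower, 6 and 4 against a 1.5-fold change, and 5 lower with the Y-linked covariate or only libraries with such reads, with 8 to 11 higher and 5 to 9 lower when 1 library was left out (5 without 4-week replicate 1). Over all genes, 977 were higher and 1046 lower. Against a 1.5-fold change there were 195 and 236, with the Y-linked covariate 628 and 608, and with only libraries with such reads 619 and 638. Leaving out 1 library gave 702 to 985 and 795 to 1069. The cause of these shifts was not tested, beside the stricter criterion and the fewer libraries. Replicate numbers did not pair the libraries (correlations of same-numbered deviations -0.0309, -0.236, -0.0955 and -0.0517). With the replicate block 2 of the 37 genes were higher and 5 lower, Il4ra (adjusted p = 0.0631) and Stat5a (0.0614) losing their calls, 5 other pathway genes were lower, and 577 of all genes were higher.

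Signs turned by intron reads for Il4ra (-0.029), Sh2b3 (-0.016), Tnfrsf1a (-0.25), Jak1 (0.059), Ptpn6 (-0.42, called lower), and the ratios Il4ra to Il13ra1 (-0.22), Tnfrsf1a to Tnfrsf1b (-0.14) and Socs2 to Cish (-0.69). Lifr to Il6st turned to -0.14 with a pseudocount of 0.1 CPM. The cause was not tested. Ratios without a library are values with no test run. Depth limits Lifr, Osmr, Il13ra1, Socs1 and Il18r1. Scaling choices moved the median of all genes by under 0.1 (log2).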
